A study of Danio rerio with 7 samples.

Results

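These are 150 RNA features, out of 433380 in the deposited table of libraries from zebrafish tail fin, that stood high at the posterior edge of a cut 48 and 72 h after amputation and low in every other library. They were chosen by the measured values themselves. On log2(FPKM + 1), the score of a feature was the lower of its values in the posterior libraries of 48 and 72 h minus the highest of its values in the other 5 libraries, and the 150 highest scores were taken. FPKM is the number of fragments per kilobase of the feature, scaled to the library's fragments. The features carry identifiers of the form "Cluster", a first number, a point and a second number, and are called clusters here. No gene name stands beside them, and 0 of the 433380 identifiers were found in the zebrafish reference tables, so no gene, pathway or cell type could be looked up and no sequence could be shown. Nor does the table settle what each feature is, whether a transcript of the fin, RNA of another organism or a product of how the features were made. Each level below is therefore that of a feature, not of a known fin transcript.

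The study took RNA from tail fin of Danio rerio in 7 groups of 1 library each. One group was the control, for which the labels give no cut, edge or time. In the others the fin had been cut, and RNA came from either side of the cut, called the anterior (ACE) or the posterior (PCE) cut edge, after 24, 48 or 72 h. The labels give no strain, genotype, age, drug or number of fish for any group, although the series title concerns calcineurin, a calcium-dependent phosphatase. With 1 library per group no difference below has a replicate check, and no test is given.

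As background, a cut zebrafish fin is first closed by a wound epidermis. Cells beneath it then lose part of their differentiated character and gather into the blastema, a proliferating tissue from which rays, joints, vessels and skin are rebuilt. Early signalling, growth of the blastema and later differentiation follow one another, so genes can switch on at different times after the cut, and the position of the cut surface sets what has to be regrown. Whether a blastema formed at the posterior or the anterior edge cannot be read from clusters without names. The libraries were from bulk tissue, so a change in the number of cells of a type and a change in RNA per cell cannot be told apart.

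The number of reads is not stated in the table. Depth relative to the control, read from the commonest ratio between low values of 2 libraries, was estimated at 1.14 for ACE 24 h, 0.905 for ACE 48 h and 1.13 for ACE 72 h. For PCE the estimates were 0.741, 0.997 and 0.771 in order of time. The libraries held between 96680 (PCE 72 h) and 181371 (ACE 72 h) clusters above 0. The PCE estimates rested on 145, 432 and 298 clusters in order of time. Each estimate assumed 1 read per cluster in both libraries, and the window of low values bounded every ratio. Small differences between them are therefore uncertain. By these estimates PCE 48 h was deeper than PCE 24 h and ACE 48 h. PCE 72 h was deeper than PCE 24 h alone, and both were no deeper than the control, ACE 24 h and ACE 72 h. These 2 posterior libraries listed the fewest clusters. The part of depth in the listed zeros was not tested.

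In the 2 posterior libraries the members reached moderate FPKM. FPKM is per kilobase, and neither lengths nor fragments are given, so such a value may rest on few fragments. In PCE 48 h the lowest member stood at 12.8 FPKM, the median at 23.5 FPKM and the highest at 118 FPKM. In PCE 72 h the lowest stood at 12.7 FPKM, the median at 26.3 FPKM and the highest at 154 FPKM. Members above 50 FPKM numbered 22 at 48 h and 34 at 72 h, and those above 100 FPKM numbered 2 and 6. Ranked among all clusters of PCE 48 h, the members lay between place 1247 and place 16024, and in PCE 72 h between place 711 and place 11957. Together they held 0.181% of the FPKM total of PCE 48 h and 0.258% of that of PCE 72 h. These sums were spread over many clusters, and the 10 highest members held 18.5% of the members' FPKM at 48 h and 19.8% at 72 h.

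Outside these 2 libraries the members were almost entirely listed at 0. At the anterior edge all 150 were listed at 0 at 24 h and at 48 h, and 149 were listed at 0 at 72 h. At the posterior edge all 150 were listed at 0 at 24 h, and in the control 149 were. Of all 433380 clusters, 28.3% were above 0 in ACE 24 h, 33.1% in ACE 48 h and 41.9% in ACE 72 h. The shares were 28.3% in PCE 24 h and 39.2% in the control, so most clusters were listed at 0 in each of these libraries. The only member with a value above 0 elsewhere was Cluster-118330.206629, for which the control had 0.38 FPKM and ACE 72 h had 0.04 FPKM. Its posterior values were 20.2 FPKM at 48 h and 28.7 FPKM at 72 h. No member (0) reached 1 FPKM in ACE 48 h or in ACE 72 h, and none (0) rose above the control there by 1 on the log2 scale. Of the 122784 clusters whose mean over the libraries was 1 FPKM or more, 19.9% were higher than the control by that much in ACE 48 h and 16.6% in ACE 72 h. The rule kept the members low in ACE, so nothing is read from this difference.

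**Figure D1:**
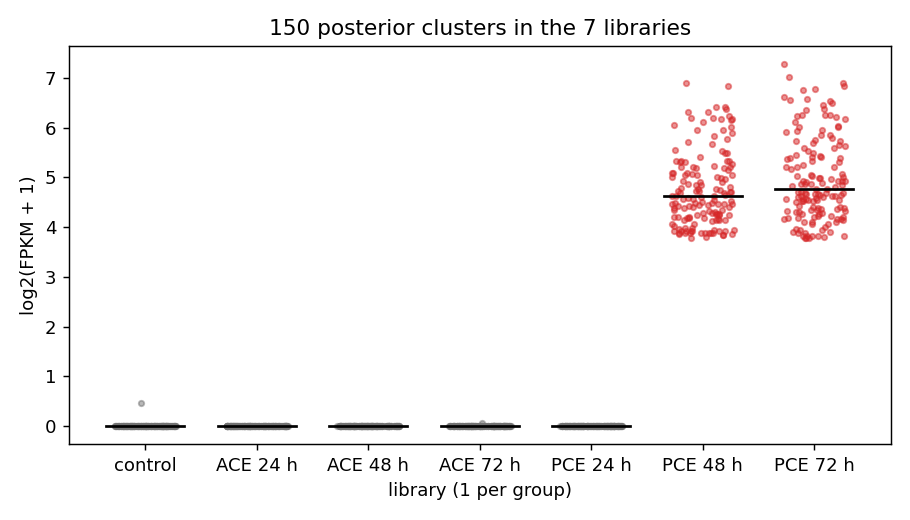
Level of each of the 150 members in the 7 libraries, on log2(FPKM + 1). Each point is 1 cluster and the black line is the median. The 2 posterior libraries from 48 h on (red) start at 12.7 FPKM, while the other 5 lie at 0 except for 1 member in the control and ACE 72 h.

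A listed 0 is not shown to be an absence of RNA, since the table gives no reads and no limit of detection. For that reason no fold over ACE, the control or PCE 24 h is given. Clusters at least as high in both posterior libraries as the lowest member were usually seen elsewhere too. No upper bound was set on their level. In all, 6244 clusters reached the level of the lowest member (12.7 FPKM) in both PCE 48 h and PCE 72 h, and the median of their highest value in the other 5 libraries was 56.8 FPKM. Of these 6244 clusters, 149 were listed at 0 in all 5 other libraries. The rule makes any such cluster a member, so their being the same 149 could not have come out otherwise. Over the 122784 clusters, 4.02% had both posterior libraries above the other 5, which is the contrast the rule used.

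The 2 members with the highest scores were Cluster-118330.206810 and Cluster-118330.207567. Cluster-118330.206810 was listed at 0 in the control, in the 3 ACE libraries and in PCE 24 h, and its posterior values were 84.4 FPKM at 48 h and 154 FPKM at 72 h. Cluster-118330.207567, listed at 0 in the same 5 libraries, stood at 82.1 and 86.8 FPKM. Both were thus first seen at 48 h, and the former was 1.83 times as high at 72 h as at 48 h while the latter differed by a factor of 1.06.

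At the edge of the rule the scores ran on without a gap. The last member had a score of 3.776 with 14.25 FPKM for PCE 48 h and 12.70 FPKM for PCE 72 h. The first cluster outside had a score of 3.772. It was one of the more abundant, with posterior values of 128 FPKM at 48 h and 162 FPKM at 72 h, and was kept out by 8.46 FPKM in ACE 48 h. The next 4 outside were again listed at 0 in the 5 other libraries, with 12.48 to 12.61 FPKM in PCE 48 h. Among the 1000 clusters with the highest scores, 926 were listed at 0 in those 5 libraries.

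From 48 to 72 h members went both ways. Of the 150, 91 were higher at 72 h and 59 lower by any amount, with a median difference of 0.20 and quartiles of -0.47 and 0.71 on log2(FPKM + 1). Higher by any amount were thus 60.7% of members, against 34.0% of the 6244 clusters at least as high as the lowest member and 25.8% of the 122784. Lower were 39.3%, 66.0% and 39.0%, and the rest of the 122784 had equal values in both libraries. Among the 2664 other clusters above 0 only in PCE 48 h and PCE 72 h, the share higher was 55.8%, near that of the members. By at least 1 on the log2 scale, 29 members (19.3%) were higher at 72 h and 15 lower, and 106 lay in between. The sum of the members' FPKM was 1.21 times as large at 72 h as at 48 h. The values of the 2 libraries were only loosely related across members (Pearson's r = 0.312 over 150 clusters on the log2 scale). They share the rule's lower bound and the depth of 1 library each, so this value is a description.

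This balance lay towards higher values at 72 h when set beside the whole table, but was near that of the other clusters seen only in PCE 48 h and PCE 72 h. Among the 122784 clusters, 14.7% were higher at 72 h by at least 1 and 23.6% lower. Many of those were at 0 in both libraries. A background nearer in FPKM, though not necessarily in fragments, is the 6244 clusters at least as high in both as the lowest member. This set was chosen after the data were seen. Of the 6244 clusters, 5.94% were higher by at least 1 and 22.4% lower, and their median difference was -0.32. Clusters above 0 in all 7 libraries, 27986 in number, also had a median of -0.32. The members therefore lay 0.52 above that median, and 107 of 150 were above it. The rule set a lower bound on both libraries and did not use their order.

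The shift in the median of shared clusters depends on how libraries are scaled, and so do the counts of members past the threshold. With median-of-ratios scaling the shared clusters had a median difference of 0.03 and the members one of 0.69, and 58 members were higher and 7 lower by at least 1. With quantile normalization these medians were 0.07 and 0.60, with 50 members higher and 7 lower. With every library set to the same FPKM total they were -0.14 and 0.43. Relative to the shared clusters, the members' median was thus higher by 0.52 to 0.66 under the 4 scalings. Each scaling acted on members and shared clusters alike, so these values are not independent checks. As deposited, the 2664 other clusters above 0 only in PCE 48 h and PCE 72 h had a median of 0.14, against 0.20 for the members.

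**Figure D2:**
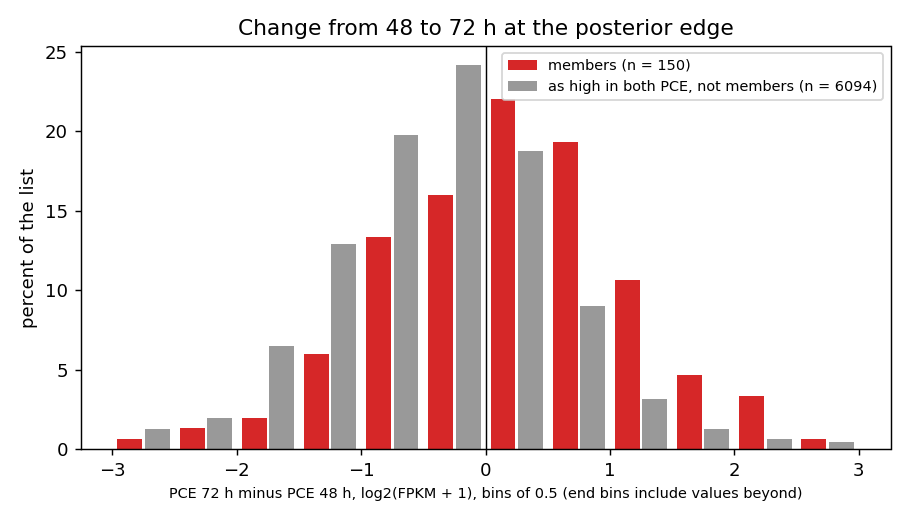
Difference between PCE 72 h and PCE 48 h on log2(FPKM + 1) in bins of 0.5, as a percentage of each list. The lists are the 150 members (red) and the other 6094 clusters at least as high in both libraries as the lowest member (grey). The bin from 0.5 to 1 holds 19.3% of the members and 9.03% of the others, and the bin from -1 to -0.5 holds 13.3% and 19.8%.

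Members that moved by at least 1 differed in where they started. The 29 that were higher at 72 h had a median of 21.0 FPKM at 48 h, with a highest value of 45.2 FPKM, and a median of 64.3 FPKM at 72 h. The 15 that were lower had a median of 68.4 FPKM at 48 h, with a lowest value of 32.1 FPKM, and a median of 23.5 FPKM at 72 h. A cluster that starts near the bound cannot fall far and stay a member, so these starting levels are partly set by the rule. The 106 others had medians of 22.4 and 23.4 FPKM.

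The largest rise was that of Cluster-26898.0, from 14.1 FPKM at 48 h to 96.7 FPKM at 72 h in PCE, which is 6.87 times as much. Cluster-29777.0 went from 13.7 to 73.1 FPKM, 5.34 times as much. Other members also stood at exactly 13.7 FPKM in PCE 48 h, with 21.93 and 14.62 FPKM in PCE 72 h. The number of fragments behind such values is not known, so the size of single folds is uncertain. The largest falls were those of Cluster-118330.132172, from 84.2 to 12.8 FPKM, and Cluster-30547.0, from 70.4 to 13.2 FPKM. All 4 were listed at 0 in the control, at the anterior edge at every time and in PCE 24 h. The rule asks for such low values there.

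**Figure D3:**
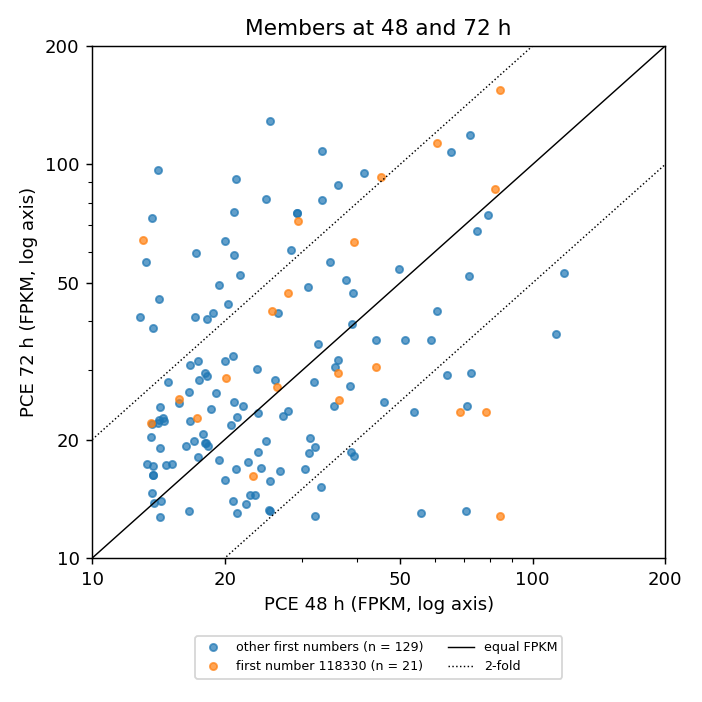
FPKM of each member in PCE 48 h (horizontal) and PCE 72 h (vertical), both on log axes. The solid line marks equal values and the dotted lines a 2-fold difference, and the members lie on both sides of the solid line, 91 above and 59 below it.

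The rule did not use the identifiers, but first numbers varied with the libraries in which clusters were above 0, as described below. They are therefore not read as a trait independent of the rule. Of all clusters, 58.6% have the first number 118330. Among the 6244 clusters at least as high in both posterior libraries as the lowest member the share was 96.3%. Among the members it was 14% (21 of 150). This low share was not particular to the members, since it was 13.4% among the 2664 other clusters above 0 only in PCE 48 h and PCE 72 h. The other 129 members had 129 different first numbers, and for 118 of them the member was the only cluster with that number in the table. The sources used here do not say what the numbers stand for, so these shares describe the identifiers and not the RNA. With members chosen anew under the other scalings 20 or 21 of 150 had this first number, but a rule with a pseudocount of 10, which lets in clusters with higher values elsewhere, gave 48 of 150.

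The first numbers of these 129 members were not spread evenly. Between 20000 and 39999 lay 107 of them, or 71.3% of all members, against 4.98% of all clusters and 1.95% of the 6244. It was not particular to the 150, since 54.5% of the 2664 other clusters seen in PCE 48 h and PCE 72 h and listed at 0 elsewhere lay there too. This stretch was chosen after the values were seen. Blocks of 10000 first numbers held 10673 to 12613 clusters each, apart from a shorter last block, and the block from 20000 to 29999 held 84 members, the block from 30000 to 39999 held 23, and no other block held more than 4. In the block from 20000 to 29999, 81.7% of all clusters were above 0 in PCE 48 h, 34.4% in PCE 72 h, 28.9% in ACE 48 h, 17.9% in ACE 72 h and 0.541% in PCE 24 h. In the last 6 blocks, from 100000 on, PCE 48 h was above 0 in 22.9% to 24.0% of clusters. Of the 10913 clusters in the block from 20000 to 29999, 4209 were above 0 in PCE 48 h alone. In the block from 30000 to 39999, with 23 members, the order differed, and 59.3% of clusters were above 0 in PCE 24 h, 25.5% in PCE 48 h and 16.0% in PCE 72 h. The part of this pattern in the choice of the members was not tested.

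**Figure D4:**
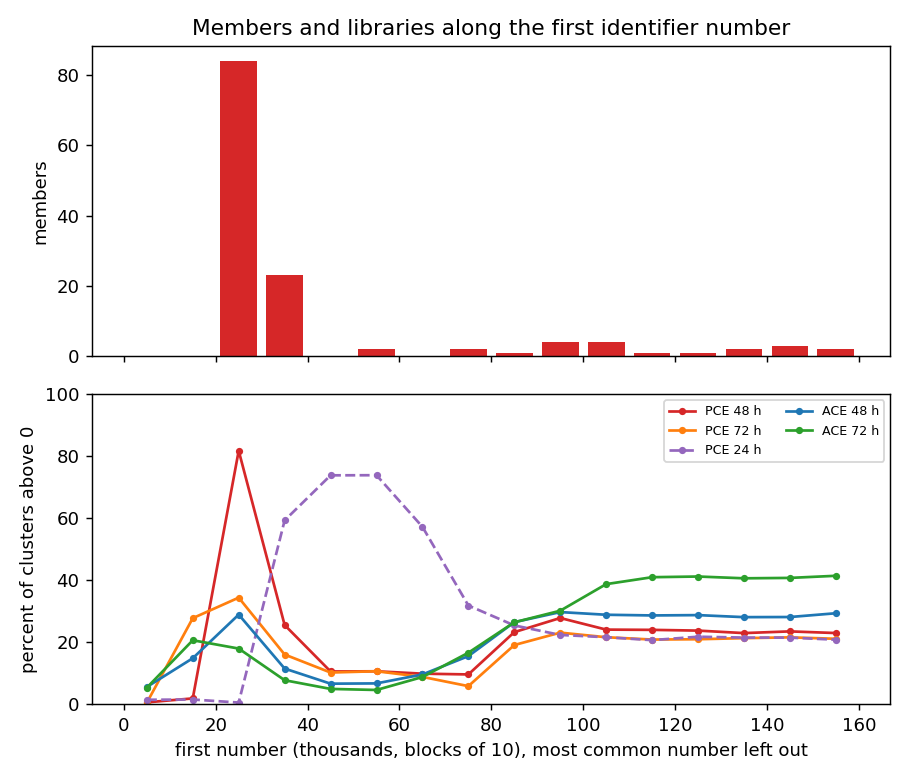
Members in each block of 10000 first numbers (top) and the percentage of all clusters of the block that were above 0 in 5 of the libraries (bottom), without clusters of the most common first number. The members peak at 84 in the block from 20000 to 29999, where 81.7% of clusters were above 0 in PCE 48 h.

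The 21 members with first number 118330 also went both ways. Their median difference from 48 to 72 h was 0.49, with 3 higher and 3 lower by at least 1, against 0.18, with 26 higher and 12 lower, for the other 129.

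For 11 of the 129 members another cluster shared the first number, which made 12 partner clusters outside the list. The highest value of any partner was 4.37 FPKM, so all lay well below the members, and 4 were listed at 0 in every library. Another 4 had both PCE 48 h and PCE 72 h above the other 5 libraries, against 2.62% of all clusters. Of all clusters, 58.6% have the first number 118330, which no partner has. That share is therefore not a like background, and no excess is read from it. These 4 partners were listed at 0 in the control and at 24 h at both edges, but unlike their members they were above 0 in ACE, with 0.09 to 0.81 FPKM at 48 h and 0.15 to 0.58 FPKM at 72 h. The partner of Cluster-26898.0 went from 0.67 to 3.05 FPKM between the posterior libraries, rising as its member did. All 4 moved from 48 to 72 h in the direction of their member, but they were picked from the 12 by the rule's own contrast. Outside the 4, Cluster-53369.1 rose from 0 to 0.67 FPKM while its member fell from 55.8 to 13.0 FPKM. Cluster-148943.0 and Cluster-146358.0 rose as their members did, and Cluster-112702.0 was listed at 0 in both. Nothing is therefore read from the shared direction. If near-identical transcripts were divided between such clusters, the level of a single one is uncertain, and whether reads were shared was not tested.

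Beyond the 150, the same presence was found in other clusters. Their lower level is set by the rule, which takes in any such cluster at 12.7 FPKM or more in both libraries. In all, 2813 clusters were above 0 in PCE 48 h and PCE 72 h and listed at 0 in the other 5 libraries, with medians of 3.12 and 3.50 FPKM, and 149 of them were members. Over the 2664 that were not, the median difference from 48 to 72 h was 0.14, 571 (21.4%) were higher and 372 lower by at least 1, and 13.4% had the first number 118330. For the members the corresponding values were 0.20, 29 (19.3%) higher, 15 lower and 14%. No minimum mean FPKM was set for the 2664, and log2(FPKM + 1) understates differences at such low values.

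The anterior counterpart, the 150 clusters that the same rule gives with the edges exchanged, was lower and had other identifiers. Its scores ran from 2.95 to 5.06, and 26 of the posterior members scored at least as high as the highest of them. Its median level was 14.5 FPKM in ACE 48 h and 11.5 FPKM in ACE 72 h, and 147 of its 150 clusters were listed at 0 in the 5 other libraries. From 48 to 72 h, 16 of them were higher and 32 lower by at least 1, with a median of -0.24. Among the 14780 clusters at least as high in both ACE libraries as the lowest of them, 6.43% were higher and 10.5% lower, with a median of -0.09. The posterior members had 29 higher and 15 lower, beside the posterior shares given above, and the difference between the edges was not tested. The first number 118330 was carried by 82.0% of the anterior clusters, against 14% of the posterior ones, and a first number from 20000 to 39999 by 1.33% against 71.3%. Over all 5626 clusters seen only in ACE 48 h and ACE 72 h these shares were 64.4% and 1.55%. With 1 library per edge and time, the edge and the library cannot be told apart in this comparison.

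**Figure D5:**
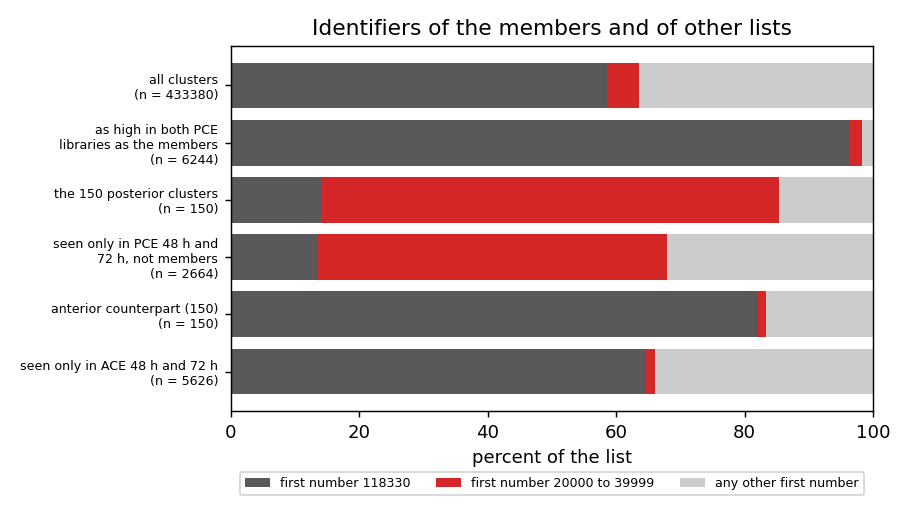
Share of clusters with the first number 118330 (dark), with a first number from 20000 to 39999 (red) and with any other (light) in 6 lists of clusters. The 150 posterior clusters have 14% dark and 71.3% red, and the anterior counterpart has 82.0% and 1.33%.

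The rule was also run without PCE 24 h and without the control, but not without an ACE library. Without PCE 24 h, 136 of the 150 remained members and 14 others entered. The entering clusters had posterior medians of 54.5 FPKM at 24 h, 34.9 FPKM at 48 h and 42.2 FPKM at 72 h, and 13 of the 14 were listed at 0 in ACE 48 h. They were thus clusters seen at the posterior edge at all 3 times. Without the control, 145 remained, and the 5 that entered had 7.20 to 11.9 FPKM in the control and were listed at 0 in every ACE library. All 5 were higher at 72 than at 48 h, against 60.7% of the members. Among the 6244 clusters at least as high in both as the lowest member, the share was 34.0%. With 5 clusters, nothing is read from this.

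Clusters with a graded edge difference came in when low values counted for less. With a pseudocount of 10 in place of 1, 112 of the 150 remained and 38 entered, with posterior medians of 118 FPKM at 48 h and 123 FPKM at 72 h. Their highest values were 259640 FPKM in PCE 48 h, 280779 FPKM in PCE 72 h and 44130 FPKM in ACE 48 h. The FPKM totals of PCE 48 h and PCE 72 h were 2558325 and 2162203, so the set includes very abundant features. Of these 38, 29 were above 0 in ACE 48 h and 32 in ACE 72 h, with medians of 12.2 and 7.32 FPKM. Their lower posterior value was 2.64 to 18.5 times the higher of the 2 anterior values, a median of 4.85 times, over the 37 for which that value was above 0. The score that let them in used these same values, so nothing is read from the size of this ratio. First number 118330 was carried by 30 of the 38. From 48 to 72 h, 23 were higher and 15 lower, with a median of 0.16.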

How the data were processed

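The authors deposited 1 table of FPKM values for the 7 libraries, with 1 column per library whose name matched a sample title. The tools listed per the submitters' processing notes are edgeR, HTSeq 0.9.1 and HISAT2 2.0.5, without their roles. The build, annotation and origin of the clusters are not given in the sources used. Trizol extraction and an NEBNext Ultra kit are named per the labels' protocols.

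FPKM was used as deposited, on log2(FPKM + 1), which understates differences of low clusters. Members were ranked by score, ties by mean FPKM. A difference of at least 1 counted as higher or lower, over clusters whose mean was 1 FPKM or more. Relative depth came from clusters at 0.15 to 0.3 FPKM in both libraries and above 0 in at most 4. The calculation of ranks and differences was checked on simulated data, with planted clusters far above the members' levels. Ranking near the cut-off was not checked by it. Python 3.11.15, numpy 2.4.6, pandas 2.3.3 and matplotlib 3.10.9 were used.

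The members, lists and comparisons were chosen with earlier results of these data known. Named are the 2 members with the highest score, the 2 largest rises and falls from 48 to 72 h, and the 2 highest in ACE, of which only 1 was above 0 there. Since the members were chosen on all 7 columns and each group had 1 library, no test was made.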

Additional observations from a re-analysis of the deposited data

How the results depend on the processing

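Each count over the 150 members was recomputed under the alternatives, and 108 of 136 values lay within 1.5 times the reported one. Part of these values could not move, since scaling leaves a listed 0 at 0 and the same members keep their first numbers. This tally is therefore no measure of stability. No direction could reverse in a count. Counts of members higher by at least 1 at 72 h than at 48 h (29 as reported) were 19 with a pseudocount of 10, 48 and 58 with median-of-ratios scaling (members chosen anew, and the same members), 50 with quantile normalization of the same members and 56 with a 1.5-fold threshold. Counts lower by at least 1 (15 as reported) were 7 with a pseudocount of 10, 7 and 7 for the same members under median-of-ratios scaling and quantile normalization, 9 with equal FPKM totals and 29 with the 1.5-fold threshold. A pseudocount of 10 also gave 28 members at 1 FPKM or more in ACE 48 h, 30 in ACE 72 h, 19 whose highest other library was ACE 48 h, 48 with first number 118330, and 19 and 12 higher than the control by at least 1 in ACE 48 h and ACE 72 h. The ACE counts of 0 became 1 at most under median-of-ratios scaling with members chosen anew, with 300 members (counts scaled to 150) and without PCE 24 h in the rule. Without a minimum mean FPKM, 6.48% of all clusters were higher and 10.04% lower at 72 h. In quantile normalization a listed 0 was kept at 0. No paired analysis was possible because each group held 1 library and no test was made, and for the same reason no replicate could be left out. Reads per cluster are not given, so no counting error or floor stands beside any value. Some members shared exact values, such as 35.87 FPKM in PCE 72 h. Others shared 29.19 FPKM in PCE 48 h together with 75.45 FPKM in PCE 72 h. Levels and changes of members may thus rest on few fragments, which was not tested.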

Other observations

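Other stretches of first numbers followed other libraries. In the blocks from 40000 to 59999, which held 2 members, PCE 24 h was above 0 in 73.8% of clusters in each block, against 10.6% for PCE 48 h. In the block from 10000 to 19999, with no member (0), PCE 72 h was above 0 in 27.7% of clusters and PCE 48 h in 1.88%. The control was above 0 in 0.541% to 4.57% of clusters in the blocks below 100000, and in 45.7% to 56.3% in those from 100000 on. The sources used do not say how the identifiers were numbered.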
